A study of Mus musculus with 10 samples.

Results

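The genes described here build the chromosome structures of meiosis. They are Sycp1 and Sycp3 of the synaptonemal complex, Hormad1 of the chromosome axis, Rec8, Stag3 and Smc1b of the meiotic cohesin, and Dmc1 and Spo11 of meiotic recombination. They were taken as every probe set whose symbol in the array annotation is exactly one of these names. That gave 9 probe sets of 45101 on the array, 2 for Dmc1 and 1 for each of the other 7 genes. RNA was measured on Affymetrix GeneChip 430 2.0 arrays, on 10 arrays in all. AG-haESC are haploid embryonic stem cells from androgenetic blastocysts, which hold a paternal genome only, of C57BL/6J background, at passage 12 to 15. Each of the 5 AG-haESC arrays is a separate line, with an Actin-EGFP transgene in replicate 3 and an Oct4-EGFP transgene in the other 4. E14 is a diploid male embryonic stem cell line of 129/Sv background, wild type, at passage 17, with 3 arrays of that same line. MEF are wild-type B6D2F1 embryonic fibroblasts from male d13.5 embryos, at passage 2, with 2 arrays. Cells were sorted by DNA content with the dye Hoechst 33342 (15 µg/ml), AG-haESC from the haploid peak and the other cells from the diploid peak. AG-haESC grew on feeder cells with the inhibitors CHIR99021 and PD0325901, while the sources used here do not give the medium of E14 and MEF. Ploidy, parental origin of the genome, strain, transgene and passage differ at once between AG-haESC and E14 and cannot be told apart. Culture may differ as well, since the medium of E14 is not known, and it cannot be told apart from these either.

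In meiosis, cohesin rings that contain meiosis-specific subunits hold sister chromatids together and form the axis of each chromosome. Axial proteins assemble on this cohesin, and a central zipper, the synaptonemal complex, joins the axes of homologous chromosomes while DNA breaks are made and repaired against the homolog. These genes are largely silent in somatic cells. In mouse embryonic stem cells, DNA methylation and a polycomb complex that contains E2F6, MGA and MAX are known to hold down many germline genes.

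The deposited values are MAS5 signals on a linear scale, scaled by array to a common trimmed mean of 500. Array medians lay between 55.9 and 68.0, and a signal below the median of its own array is treated here as dim. Of the 8 genes, 7 had a signal above the array median on at least 2 arrays and entered the test over 13251 genes, while Spo11 did not. Differences are in log2 signal with the standard error of the limma fit, and p-values are adjusted by Benjamini-Hochberg over all 13251 genes. A gene was called when its adjusted p lay below 0.05 and its difference was at least 2-fold. Signals of different probe sets depend on the probes and are not compared with each other. In sorted cultures measured in bulk, fewer expressing cells and less RNA per cell cannot be told apart. The 5 pluripotency markers (Pou5f1, Nanog, Sox2, Esrrb and Zfp42) lay above the median on all 8 stem cell arrays, and only Sox2 did on the MEF arrays. Fibroblast markers, 6 in number, had a summed signal of 1826 to 6664 in AG-haESC and 523.4 to 1276.0 in E14, against 91445 to 112419 in MEF. The part of that gap between the stem cell types in the results below was not tested. Not every fibroblast marker followed the sum, since Thy1 and Twist1 overlapped between AG-haESC and E14. Limma called 4 of the 6 higher in AG-haESC than in E14, against 4.58% of all genes. On the MEF arrays all 9 probe sets of the meiotic genes lay below the array median. Of the 7 spermatocyte markers, Pgk2, Tnp1 and Prm1, which mark late male germ cells, lay below the median on all 10 arrays. Ldhc lay above it on all 8 stem cell arrays and on no MEF array, and Hspa2 on all 10. Tex101 and Piwil1 each lay above it on 4 of the 5 AG-haESC lines and on 1 of the 3 E14 arrays.

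E14 replicate 3 stood apart from the other E14 arrays before any comparison. It was the lowest of the 3 E14 arrays for 7 of 7 tested meiotic genes, and for 50.1% of all 13251 genes. The summed signal of 5 germ cell markers (Ddx4, Dazl, Dppa3, Prdm1 and Kit) was 13950 to 20892 in AG-haESC. In E14 it was 9881 and 10995 on replicates 1 and 2 and 3809 on replicate 3. Not every marker was low there, since Dppa3 read 2057.5 on replicate 3, against 1151.8 and 1318.6, and Prdm1 261.2, against 112.0 and 163.1. Nor did every marker follow the sum between AG-haESC and E14, where limma called 1 of the 5 higher and 0 lower. Over all genes 4.58% were called higher. Ddx4 read 576.3 to 910.1 in AG-haESC, against 1081.8, 1140.3 and 529.2 in E14 replicates 1 to 3, and Kit and Prdm1 overlapped. Because E14 replicate 3 stood apart, each difference between AG-haESC and E14 is given with and without this array where it matters.

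The promoters of the 3 genes called between AG-haESC and E14 are shown because these genes differed in opposite directions. The sequences are RefSeq windows of build GRCm38.p6, 250 bases before to 50 after the start site, 5′ to 3′ on the strand of the gene. Capitals mark CACGTG, the E-box that MAX binds with its partners, and TCCCGC or its reverse complement GCGGGA, the core of E2F sites, both searched on each strand. The windows are chr3:102936051-102936350 on the minus strand for Sycp1, chr3:95559427-95559726 on the plus strand for Hormad1 and chr10:88459337-88459636 on the plus strand for Sycp3.
Sycp1: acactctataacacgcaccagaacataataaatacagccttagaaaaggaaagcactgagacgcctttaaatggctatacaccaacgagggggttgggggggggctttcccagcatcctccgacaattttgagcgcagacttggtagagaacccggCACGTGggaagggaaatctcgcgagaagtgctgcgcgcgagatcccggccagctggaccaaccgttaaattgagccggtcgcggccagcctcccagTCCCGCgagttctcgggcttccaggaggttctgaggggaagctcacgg
Hormad1: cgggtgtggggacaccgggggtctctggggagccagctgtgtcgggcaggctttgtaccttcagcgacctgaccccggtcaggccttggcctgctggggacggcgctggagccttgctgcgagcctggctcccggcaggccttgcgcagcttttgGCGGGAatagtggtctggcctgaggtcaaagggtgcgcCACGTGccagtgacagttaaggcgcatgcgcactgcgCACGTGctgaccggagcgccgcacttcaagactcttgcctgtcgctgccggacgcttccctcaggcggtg
Sycp3: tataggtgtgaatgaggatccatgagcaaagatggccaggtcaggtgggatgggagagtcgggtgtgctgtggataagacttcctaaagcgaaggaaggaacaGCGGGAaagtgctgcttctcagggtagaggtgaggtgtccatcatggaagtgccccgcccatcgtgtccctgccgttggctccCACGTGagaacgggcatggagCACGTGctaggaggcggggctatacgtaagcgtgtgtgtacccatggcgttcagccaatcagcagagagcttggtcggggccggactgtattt
The E-box occurs once before the start of Sycp1, with its first base at -94. It occurs 2 times before Hormad1, at -57 and -20, and 2 times before Sycp3, at -64 and -43. The table held promoters for 7 of the 8 genes, and Spo11 was not among them. CACGTG was present in 4 of these 7 genes (Sycp1, Hormad1, Sycp3 and Stag3), against 7.15% of all 32851 windows in the table. TCCCGC was present in all 7, against 20% of all windows, and in no window did the motifs share a base. The 7 genes had between 15 and 30 CG dinucleotides per window, against a median of 7 over all windows. Both motifs hold a CG, and the shares over all windows were not matched for CG content. The genes that were higher in AG-haESC (Sycp1 and Hormad1) and the one that was lower (Sycp3) thus all carried both motifs, and these letters did not separate them. A match is a description of the sequence and says nothing on binding in these cells.

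**Figure D1:**
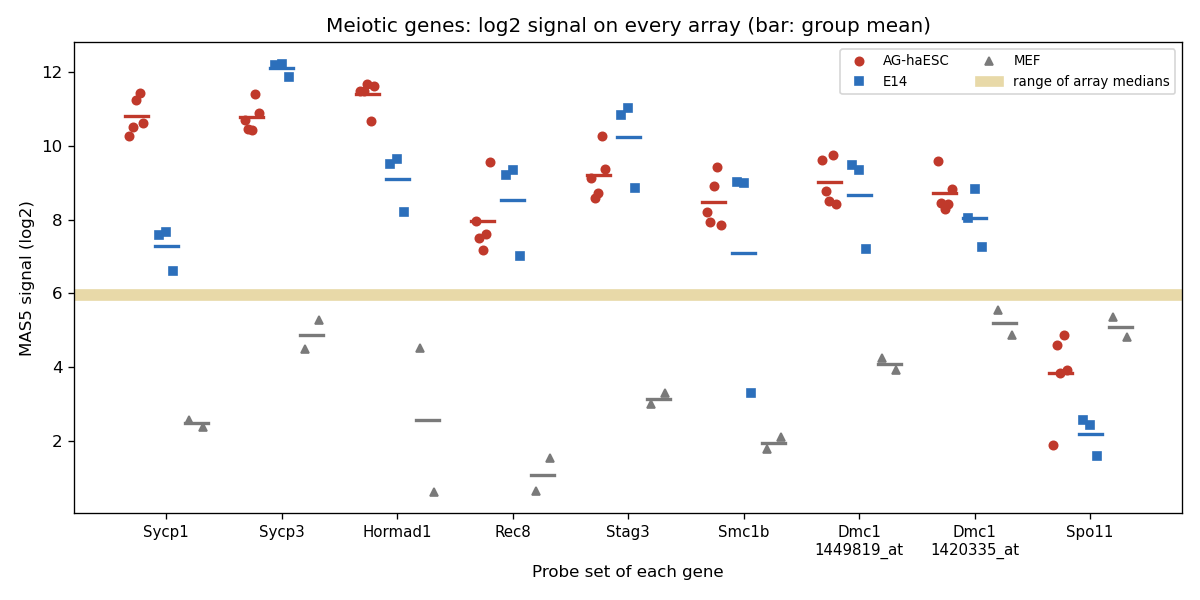
Log2 MAS5 signal (y axis) of each probe set (x axis) on every array, with AG-haESC (red circles, n = 5), E14 (blue squares, n = 3) and MEF (grey triangles, n = 2), bars at the group means and a band over the range of array medians. All MEF points lie below the band, Sycp1 and Hormad1 lie higher in AG-haESC than in E14, Sycp3 lies lower, and E14 replicate 3 is the lone low E14 point of Smc1b at 3.29.

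The first comparison sets the haploid androgenetic lines against diploid E14 stem cells. Of the 7 tested meiotic genes, Sycp1 and Hormad1 were called higher in AG-haESC and Sycp3 was called lower. Over all genes tested, 4.58% were called higher and 3.74% lower. The arrays of the groups did not overlap for these 3 genes, and over all genes 9.87% lay wholly higher in AG-haESC and 12.8% wholly lower. The cohesin genes Rec8, Stag3 and Smc1b and the recombinase gene Dmc1 were not called.

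Sycp1 encodes the transverse filament that spans the gap between homologs in the synaptonemal complex. Its signal was 1232.4, 1446.7, 2411.2, 2739.3 and 1567.3 in AG-haESC replicates 1 to 5, against 190.0, 201.4 and 97.9 in E14 replicates 1 to 3. Every AG-haESC line lay far above every E14 array, and E14 still lay above its array medians. The mean log2 signal of Sycp1 was 10.81 ± 0.50 in the 5 AG-haESC lines and 7.28 ± 0.58 on the 3 E14 arrays (± SD, as for the other genes). They differed by 3.53 ± 0.32 (limma adjusted p = 5.28e-05), with a 95% interval of 2.83 to 4.22 and an 11.5-fold ratio. It was 3.19 ± 0.30 without E14 replicate 3 (limma adjusted p = 6.49e-05).

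Sycp3 encodes the main protein of the lateral elements, on which the loops of each chromosome are anchored. Its signal was 1654.6, 1410.3, 1373.7, 2719.2 and 1892.1 in AG-haESC replicates 1 to 5, against 4718.3, 4785.4 and 3759.9 in E14 replicates 1 to 3. The groups did not overlap, and the highest line, AG-haESC replicate 4, lay below the lowest E14 array. The log2 signal averaged 10.77 ± 0.40 in AG-haESC, against 12.10 ± 0.20 in E14, and differed by -1.33 ± 0.24 (limma adjusted p = 0.00425). Without E14 replicate 3 it was -1.44 ± 0.27 (limma adjusted p = 0.00432). Sycp1 and Sycp3, which act in the same complex, thus differed in opposite directions between these stem cells.

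Hormad1 encodes a HORMA domain protein that marks axes that have not yet synapsed. Its signal was 2895.3, 2876.6, 3256.2, 1632.5 and 3165.2 in AG-haESC replicates 1 to 5, against 722.6, 793.1 and 293.7 in E14 replicates 1 to 3. All AG-haESC lines lay above all E14 arrays, including AG-haESC replicate 4, which was the lowest line. The log2 signal averaged 11.39 ± 0.41 in AG-haESC, against 9.11 ± 0.79 in E14, and differed by 2.28 ± 0.68 (limma adjusted p = 0.0416). The call did not hold when E14 replicate 1, 2 or 3 was left out, nor when AG-haESC replicate 1, 2, 3 or 5 was, with adjusted p between 0.0722 and 0.100 in limma. The standard error held the spread of the MEF arrays, where Hormad1 was dim with signals of 22.7 and 1.5. With signals below the array median raised to it, an alternative that removes this spread, the difference kept its size at 2.28 and the limma adjusted p was 0.000929. Under that alternative, leaving out any 1 of the AG-haESC or E14 arrays gave differences of 1.83 to 2.54 and limma adjusted p between 0.000481 and 0.00381. That combination was chosen after seeing the data.

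Rec8 encodes the meiotic kleisin, the subunit that closes the cohesin ring and is cleaved at anaphase. Its signal was 247.7, 180.7, 144.4, 196.8 and 757.1 in AG-haESC replicates 1 to 5, against 595.5, 654.7 and 130.0 in E14 replicates 1 to 3. AG-haESC replicate 5 was higher than every E14 array, and the other 4 lines lay between E14 replicate 3 and the other E14 arrays, so the groups overlapped. The difference in log2 signal was -0.57 ± 0.62 (limma adjusted p = 0.578), with a 95% interval of -1.93 to 0.79. Without E14 replicate 3 it was -1.32 ± 0.55 and still not called (limma adjusted p = 0.111).

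Stag3 encodes the meiosis-specific stromalin subunit, which binds the kleisin. Its signal was 560.3, 381.4, 420.4, 1238.6 and 656.4 in AG-haESC replicates 1 to 5, against 1838.0, 2070.9 and 465.4 in E14 replicates 1 to 3. E14 replicate 3 lay inside the range of the AG-haESC lines, while E14 replicates 1 and 2 lay above all of them. With all arrays the difference was -1.03 ± 0.49 (limma adjusted p = 0.183), with a 95% interval of -2.11 to 0.046. Without E14 replicate 3 it was -1.72 ± 0.38 (limma adjusted p = 0.00954), and Stag3 was then called lower in AG-haESC.

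Smc1b encodes the meiotic partner of the SMC3 core subunit. Its signal was 297.4, 246.4, 480.4, 682.4 and 229.7 in AG-haESC replicates 1 to 5, against 518.4, 507.1 and 9.8 in E14 replicates 1 to 3. E14 replicate 3 was the only stem cell array on which Smc1b lay below the array median, and the other E14 arrays lay inside the AG-haESC range. The difference of 1.37 ± 1.07 had a 95% interval of -0.98 to 3.71 (limma adjusted p = 0.425). It turned to -0.54 ± 0.40 without E14 replicate 3 (limma adjusted p = 0.370), so its sign rested on that array.

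Dmc1 encodes the meiotic recombinase that carries out strand exchange between homologs. On its brighter probe set, 1449819_at, the signal was 781.4, 441.1, 363.6, 857.3 and 345.5 in AG-haESC replicates 1 to 5, against 718.9, 652.2 and 145.8 in E14 replicates 1 to 3. On 1420335_at it was 766.8, 347.6, 312.8, 342.5 and 453.8 in AG-haESC, against 263.1, 456.0 and 151.9 in E14. Neither probe set separated the groups, and they ranked the AG-haESC lines differently, with replicate 4 highest on the first and replicate 1 on the second. The differences were 0.34 ± 0.50 on the first (limma adjusted p = 0.692) and 0.67 ± 0.38 on the second (limma adjusted p = 0.283 over 27505 probe sets). The 95% interval on the first was -0.76 to 1.44, and without E14 replicate 3 the difference on that probe set was -0.40. The fit without that array is given for the first probe set only. On 1420335_at the AG-haESC mean log2 signal of 8.71 lay between E14 replicate 1, at 8.04, and E14 replicate 2, at 8.83.

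Spo11 encodes the topoisomerase-like enzyme that makes the DNA breaks of meiosis. Its signal was 3.7, 24.3, 14.4, 29.0 and 15.1 in AG-haESC replicates 1 to 5, 5.9, 5.4 and 3.0 in E14, and 40.7 and 28.3 in MEF. All 10 values lay below their array medians, so no fold is given and no difference between groups is read from them.

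**Figure D2:**
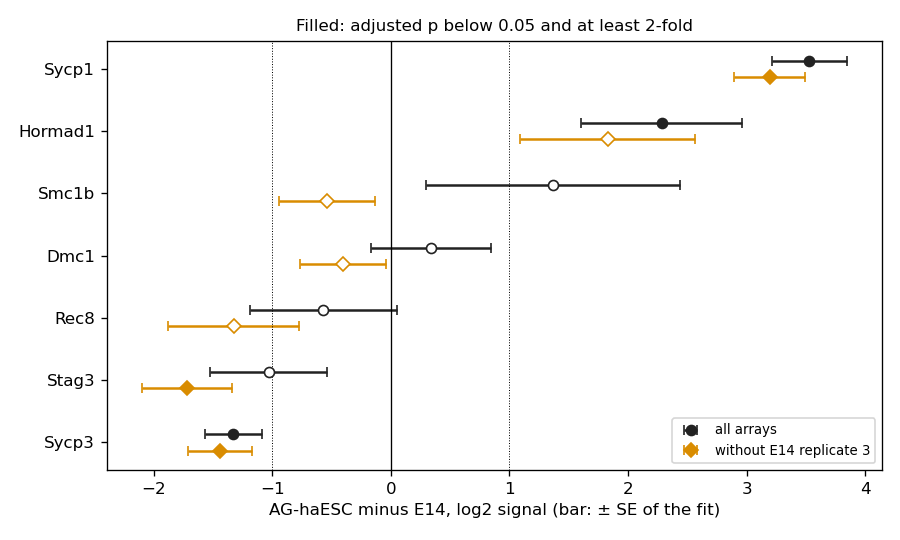
Difference of AG-haESC minus E14 in log2 signal (x axis) for the 7 tested genes (y axis), with the standard error of the fit, for all arrays (black circles) and without E14 replicate 3 (orange diamonds). Filled symbols are called, and Sycp1 and Sycp3 are called either way, at 3.53 and 3.19 and at -1.33 and -1.44. Smc1b and Dmc1, the latter read on 1449819_at only, change sign.

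The AG-haESC lines differed among themselves, and not in the same order for every gene. Replicate 4, the line of lowest passage at 12, had the highest signals of Sycp1, Sycp3, Stag3, Smc1b and Dmc1 on 1449819_at and the lowest of Hormad1. Sycp3 and Stag3 were both highest in replicate 4, then in replicate 5, then in replicate 1. Replicate 5 had the highest Rec8, at 757.1 against 144.4 to 247.7 in the other lines. The range between lines in log2 signal was 1.15 for Sycp1, 0.99 for Sycp3 and 1.00 for Hormad1, and it was 1.70 for Stag3, 1.57 for Smc1b and 2.39 for Rec8. Replicate 3, the line with the Actin-EGFP transgene, lay inside the range of the Oct4-EGFP lines for Sycp1 (2411.2), Stag3 (420.4) and Smc1b (480.4). It was the highest line for Hormad1 and the lowest for Sycp3 and Rec8. With 1 array per line, differences between lines have no test, and whether passage had a part was not tested.

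**Figure D3:**
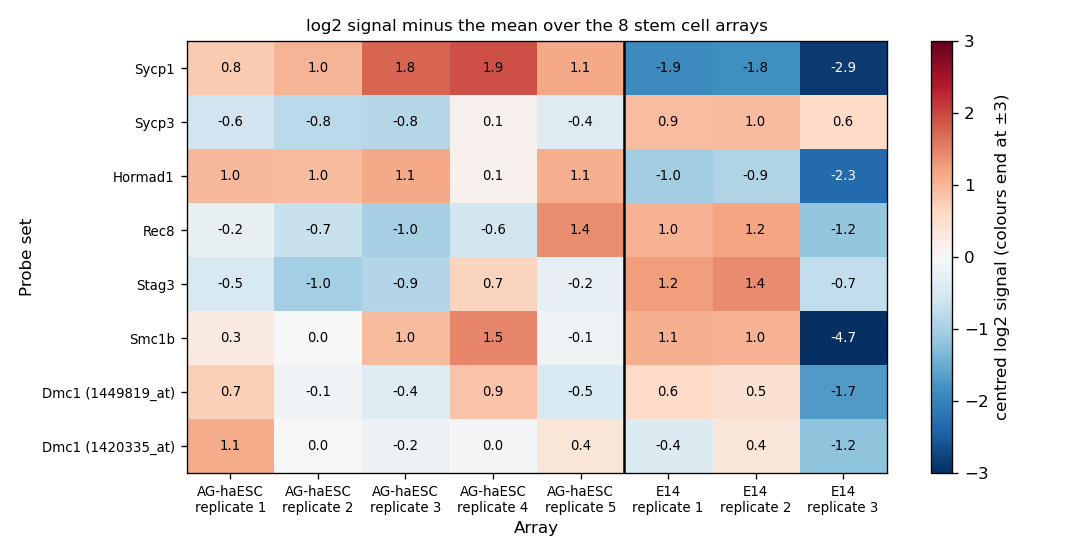
Log2 signal of 8 probe sets (rows) on the 8 stem cell arrays (columns, AG-haESC left of the line and E14 right of it), each minus its mean over these arrays. Sycp1 and Hormad1 are above 0 in every AG-haESC line, Sycp3 is above 0 in every E14 array, and Smc1b on E14 replicate 3 is at -4.66, beyond the colour scale.

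The comparisons with MEF set each stem cell type against fibroblasts, a somatic reference. All 7 tested genes were called higher in AG-haESC than in MEF, where 19.7% of all genes were called higher and 22.5% lower. All 7 were also called higher in E14 than in MEF, where 20.9% of genes were higher and 21.3% lower. The arrays did not overlap for any of the 7 in either comparison, and over all genes 34.6% lay wholly higher in AG-haESC than in MEF and 38.2% wholly higher in E14 than in MEF. These 7 genes passed the filter on dim signals through the stem cell arrays alone, so a higher value there was built into the choice and the counts support nothing further. The comparisons share their MEF arrays, and AG-haESC and E14 each enter 2 of the 3 comparisons.

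With MEF put at its array medians, the size is a lower bound for each gene. No p-value is set beside the bounds, since the filter had fixed the direction and the medians replace the MEF spread. Sycp1 was at least 28.3-fold higher in AG-haESC than in MEF and at least 2.45-fold higher in E14 than in MEF. Hormad1 was at least 42.5-fold higher in AG-haESC and at least 8.73-fold higher in E14. Sycp3 was at least 27.7-fold higher in AG-haESC and at least 69.5-fold higher in E14. For the cohesin genes the bounds in AG-haESC were 9.37-fold for Stag3, 5.59-fold for Smc1b and 3.94-fold for Rec8. In E14 they were 19.1-fold for Stag3, 2.17-fold for Smc1b and 5.85-fold for Rec8. Dmc1 was at least 8.18-fold higher in AG-haESC and at least 6.46-fold higher in E14 on its brighter probe set. On its other probe set, 1420335_at, the bounds were smaller, 6.63-fold in AG-haESC and 4.16-fold in E14. Some of the E14 bounds rested on E14 replicate 3, and without it they were 30.8-fold for Stag3, 8.10-fold for Smc1b and 9.87-fold for Rec8. For Dmc1 they were then 10.8-fold on the brighter probe set and 5.48-fold on 1420335_at. Smc1b had a bound of only 1.11-fold when E14 replicate 1 was left out and of 1.13-fold when replicate 2 was. Sycp1 and Hormad1 thus ran in the order AG-haESC, E14, MEF, and Sycp3 in the order E14, AG-haESC, MEF, with no overlap between neighbours. For Rec8, Stag3, Smc1b and Dmc1 the AG-haESC and E14 arrays overlapped, and MEF lay below both. Without E14 replicate 3, Stag3 was called lower in AG-haESC, as given above.

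Lists of other genes of the pathway, chosen with earlier results of these data known, were counted in the same fit. Of 32 further genes of synapsis, chromosome axis, break formation, recombination, telomere attachment and meiotic entry, 1 was called higher in AG-haESC than in E14 and 2 lower. Their median difference was -0.14, against -0.082 over all genes. Against MEF, 25 of the 32 were called higher in AG-haESC and 1 lower, and 26 were called higher in E14 and none lower (1 lower without E14 replicate 3), where 19.7% and 20.9% of all genes were called higher. Of the 32, 20 lay below the array medians on both MEF arrays and so passed the filter through the stem cell arrays, among them 19 of those called higher in each comparison. The lower gene was Mei4, a factor of break formation, by -1.41 ± 0.32 in AG-haESC against MEF (limma adjusted p = 0.00274). Among the largest differences from MEF, Dazl was at least 131-fold higher in AG-haESC and 34.8-fold higher in E14. The E14 bound of Dazl was 93.1-fold without E14 replicate 3, 20.7-fold without replicate 2 and 21.9-fold without replicate 1. Rec114 was at least 68.0-fold higher in AG-haESC and 34.9-fold higher in E14, the second being 62.5-fold without E14 replicate 3. Hsf2bp, which binds BRCA2 in meiotic recombination, was at least 26.9-fold higher in AG-haESC and 29.3-fold higher in E14, and differed by -0.12 ± 0.15 between AG-haESC and E14 (limma adjusted p = 0.632). Of the 8 tested synaptonemal complex genes, including Sycp1 and Sycp3, the other 6 were not called between AG-haESC and E14. Syce1 and Syce2, of the central element, differed by 0.18 ± 0.36 and -0.38 ± 0.24 (limma adjusted p = 0.770 and 0.312). The largest differences of the 6, named after their values were seen, were -1.54 ± 0.53 for Syce3 and 1.29 ± 0.93 for Tex12 (limma adjusted p = 0.0692 and 0.384).

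The lower genes were Mnd1 and Ccnb1ip1. Mnd1 works with its partner Psmc3ip to stimulate DMC1 in strand exchange, and its signal was 405.6, 411.1, 327.7, 341.1 and 285.1 in AG-haESC replicates 1 to 5, against 2025.0, 1664.8 and 1559.0 in E14. Ccnb1ip1, also named HEI10, marks sites of crossing over, and its signal was 620.2, 658.4, 482.7, 839.4 and 610.8 in AG-haESC replicates 1 to 5, against 2168.0, 2515.4 and 2832.2 in E14. Neither gene overlapped between the groups, and their E14 arrays lay close together, including replicate 3. The differences were -2.31 ± 0.18 for Mnd1 and -1.98 ± 0.19 for Ccnb1ip1 (limma adjusted p = 2.39e-05 and 6.59e-05), while Psmc3ip differed by -0.088 ± 0.14 (limma adjusted p = 0.704). The higher gene was Tex15, which is needed for repair of meiotic breaks, with signals of 1219.2, 1041.7, 1905.0, 2385.6 and 1113.3 in AG-haESC replicates 1 to 5, against 670.2, 771.0 and 166.4 in E14 replicates 1 to 3. All AG-haESC lines lay above all E14 arrays. Its difference was 1.72 ± 0.45 (limma adjusted p = 0.0262), and the call was lost without AG-haESC replicate 3 (limma adjusted p = 0.0579). Without E14 replicate 3 the difference of Tex15 fell to 1.01 ± 0.29 (limma adjusted p = 0.0321), still called but close to the 2-fold limit.

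Without E14 replicate 3, 6 of the 32 genes were called lower in AG-haESC, against 5.03% of all genes under that setting. They were Mnd1, Ccnb1ip1, Stra8, Syce3, Terb1 and Terb2, and the last 4 of these were named after their values were seen. Stra8, the retinoic acid target that starts meiosis, had signals of 1649.5, 1193.0, 1241.9, 3301.1 and 2492.9 in AG-haESC replicates 1 to 5, against 7595.1, 8314.6 and 193.7 in E14 replicates 1 to 3. The other E14 arrays lay above all AG-haESC lines and replicate 3 lay below all of them. Stra8 differed by -0.34 ± 1.07 with all arrays (limma adjusted p = 0.867) and by -2.12 ± 0.59 without E14 replicate 3 (limma adjusted p = 0.0259). Dazl, an RNA-binding factor of germ cells named above, showed the same array apart, with 308.3 there against 5564.4 and 6236.5 on the other E14 arrays. Rec114, which acts with SPO11 in break formation, likewise read 687.4 there against 3862.6 and 4046.1.

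**Figure D4:**
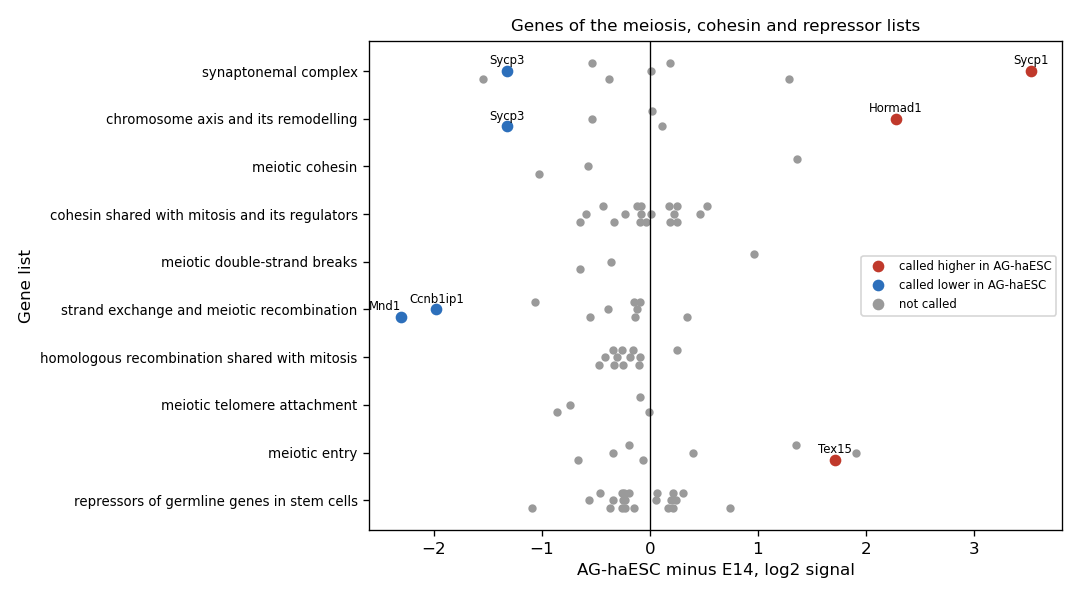
Difference of AG-haESC minus E14 in log2 signal (x axis) for each tested gene of 10 lists (y axis), with genes called higher in red, called lower in blue and not called in grey. Sycp1 at 3.53 and Mnd1 at -2.31 lie at the ends of the range, and no gene of the cohesin, homologous recombination or repressor lists is called.

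Genes of cohesin and recombination that dividing cells also use were counted as a counterpart. Over all genes tested, 8.32% were called in either direction for AG-haESC against E14, so short lists hold few calls at that share. The share of all genes at an unadjusted p below 0.05 is not given here. Of 18 genes of the shared cohesin and its regulators, limma called 0 for AG-haESC against E14. At an unadjusted p below 0.05 there were 7, and 1 had an adjusted p below 0.05. That gene was Sgo2a, a protector of centromeric cohesin, at 0.53 ± 0.15 (limma adjusted p = 0.0363), which is below 2-fold and was named after its values were seen. The core subunits Smc3 and Rad21 differed by -0.082 and 0.18 (limma adjusted p = 0.684 and 0.547). The largest difference of the 18 was -0.65 ± 0.22 for Esco2, not called (limma adjusted p = 0.0636). Of 12 genes of homologous recombination shared with mitosis, limma called 0, with 2 at an unadjusted p below 0.05, and Brca1 differed by -0.099 ± 0.13 (limma adjusted p = 0.655). Against MEF, 7 of the 18 and 9 of the 12 were called higher in AG-haESC, where 19.7% of all genes were higher and 22.5% lower. Hdac8, which deacetylates cohesin, was the 1 gene of the 18 called lower (-1.58 ± 0.50, limma adjusted p = 0.0175), and it lay below the array medians in all AG-haESC lines. Among the higher genes was Esco2, the acetyltransferase that locks cohesin in S phase, by 4.02 ± 0.25 (limma adjusted p = 1.45e-07).

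Factors known to repress germline genes in stem cells were also counted. Of 22 such genes, limma called 0 between AG-haESC and E14, where 8.32% of all genes were called in either direction. At an unadjusted p below 0.05 there were 6, and 2 had an adjusted p below 0.05. Those 2, named after their values were seen, were the deacetylase Hdac1, at 0.75 ± 0.11, and Mga, at -0.46 ± 0.13 (limma adjusted p = 0.00123 and 0.0291), both below 2-fold. E2f6 differed by 0.31 ± 0.17 and Dnmt1 by -0.37 ± 0.13 (limma adjusted p = 0.231 and 0.0795).

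Genes whose log2 signal over the 10 arrays was most like that of each called gene were found by Pearson's r, as a description over arrays that share the large step between stem cells and MEF. They were Psma1, Tex19.2 and Kif4 for Sycp1 (r = 0.994, 0.994 and 0.993), and Aurkc, Polr3g and Rabggtb for Sycp3 (r = 0.996, 0.994 and 0.994). For Hormad1 they were Calcoco2, Bcl2l14 and Gm38396 (r = 0.994, 0.989 and 0.986).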

How the data were processed

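The deposited table holds 1 signal intensity per probe set and array, processed by the authors with MAS5 according to the submitters' processing notes. The sources used here give neither its version nor detection calls. Values are linear, and the 2% trimmed mean was 500 on every array. They were taken to log2 with no pseudocount. Of 45101 probe sets, 64 were controls, 34945 paired with 1 gene symbol, and 27505 had a signal above the array median on at least 2 arrays. A gene was read from the brightest of its kept probe sets by mean log2 signal, which gave 13251 genes.

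All 10 arrays entered 1 fit of 3 group means with 7 residual degrees of freedom, in limma 3.58.1 under R 4.3.3 with a trended prior variance. P-values are two-sided. The number of arrays limits the precision. E14 arrays are of 1 line, so their spread holds none between diploid lines, and nothing in the labels says that the MEF arrays came from separate embryos. The steps were tested on simulated data with known changes. The members and gene lists were chosen with earlier results of these data known. Genes named are the members, list genes called between AG-haESC and E14, list genes with the largest called differences, and the 3 most alike genes per called member. Others are given as picked after seeing values or as uncalled examples of a list. Alternatives changed the normalization, pseudocount, floor, filter, variance prior, array weights, probe set rule, level of testing, arrays in the fit and replicate block, and left out each array in turn.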

Additional observations from a re-analysis of the deposited data

Results flagged for a closer look

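Hormad1 in AG-haESC replicate 4 lay apart from the other lines, at a log2 signal of 10.67 against 11.49 to 11.67 in the other 4 lines. The gap to its nearest neighbour was 0.820 of the whole range of the group, above the critical value of Dixon's test for 5 samples. A gap above that critical value arises by chance in about 1 in 20 groups. The number of groups screened is not given here, so this rate cannot be set against it.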

How the results depend on the processing

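Sycp1 and Sycp3 kept their direction and call for AG-haESC against E14 under all 25 alternatives run, with differences of 3.13 to 3.72 and -1.52 to -1.24. These include 8 that join the floor with 1 array left out, added after seeing the data. In a further fit, over all probe sets but controls with no filter, Hormad1 was not called (limma adjusted p = 0.0564). Hormad1 kept its direction under the other 17 and lost its call under 8 of them, with no trend (adjusted p = 0.0770) and without 7 of the 8 stem cell arrays. The number of members called higher was therefore 1 with no trend and 1 to 2 with 1 array left out. The number called lower was 3 with array weights, which added Rec8 (-1.27, limma adjusted p = 0.0413) and Stag3 (-1.77, limma adjusted p = 0.000883), and 1 to 2 with 1 array left out. Signs turned with array weights for Dmc1 on 1449819_at (-0.36) and for Smc1b (-0.43). Over the arrays left out their differences ran from -0.40 to 0.75 and from -0.54 to 2.33, negative without E14 replicate 3 alone. The cause of the low values of that array was not tested. With 1 array left out, the other meiosis genes called numbered 0 to 1 higher and 2 to 6 lower for AG-haESC against E14, and 0 to 1 lower for E14 against MEF. All 7 members stayed higher in each stem cell type than in MEF, except that Smc1b in E14 was not called in the 2-group fit (limma adjusted p = 0.0521). With no filter, 1 member was called lower in E14 than in MEF, which was Spo11, dim on every array. Leaving out a MEF array assumes that the lone one varies like the other groups. E14 and MEF share replicate numbers, and the deviations of same-numbered arrays correlated at -0.00191 and -0.0357. With 2 MEF arrays their deviations mirror each other, so these values cannot decide whether the numbers mark pairs. With the replicate block, which left 1 residual degree of freedom, 7 members were again called higher in E14 than in MEF and 0 lower, and 5614 genes were called in all, against 5581 without it.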
